A study of Mus musculus with 12 samples.

Results

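Metallothioneins and the zinc handling genes around them were followed in livers of mice with carbon tetrachloride (CCl4) fibrosis and knockdown of the long noncoding RNA lnc-LFAR1. The set held 7 of the 18193 genes that the arrays measured, namely the metallothioneins Mt1 and Mt2, the transcription factor Mtf1, the zinc importers Slc39a14 and Slc39a4, and the exporters Slc30a1 and Slc30a10. It was chosen on measured values, because Mt1 was low in shLFAR1 livers and because Mt1 and Mt2 had the largest CCl4 responses under the knockdown virus. These values of Mt1 and Mt2 are therefore given as a description with no test. Mtf1 and the 4 transporters were tested only in the comparisons on which the choice did not rest.

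The 4 groups were shLFAR1+CCl4, NC+CCl4, shLFAR1 and NC, with 3 arrays each out of 10 mice per group. All animals were male Balb/c mice obtained at 8 weeks of age, and they were older when the livers were taken. All of them received a lentivirus through the tail vein after 2 weeks of injections, so no group is without virus. In shLFAR1+CCl4 and shLFAR1 the virus was Lenti-shLFAR1, which carries a short hairpin RNA against lnc-LFAR1 and was made with an H1 promoter that is not confined to a cell type. In NC+CCl4 and NC it was the control virus Lenti-NC. The CCl4 groups got 5% CCl4 in olive oil (0.3 ml/kg, intraperitoneal, 3 times per week), the shLFAR1 and NC groups got olive oil alone, and treatment went on for 4 weeks after the virus (6 weeks in all). The hairpin groups rest on 1 hairpin, and the level of lnc-LFAR1 itself was not analysed here.

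Metallothioneins are small cysteine-rich proteins that bind zinc and copper in the cytosol and buffer the free metal. In mouse liver, Mt1 and Mt2 are induced by zinc through the metal-sensing transcription factor MTF1, which binds metal response elements in their promoters, and also by glucocorticoids, by interleukin-6 and by oxidative stress. ZIP transporters (Slc39 genes) move zinc into the cytosol, and ZnT transporters (Slc30 genes) move it out or into vesicles. Liver metallothionein is known to rise in the acute phase response, when zinc moves from plasma into hepatocytes.

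The promoter windows of both metallothioneins and of Slc30a1, another known MTF1 target, are shown because they can hold metal response elements. Each window holds 300 bases, 250 before and 50 after the start site that RefSeq gives on GRCm38.p6, written on the strand of the gene. The Mt1 window is chr8:94178839-94179138, the Mt2 window chr8:94172368-94172667 and the Slc30a1 window chr1:191906531-191906830, all on the plus strand. Capitals mark matches to the metal response element core, TGCACNC or TGCGCNC on either strand.
Mt1: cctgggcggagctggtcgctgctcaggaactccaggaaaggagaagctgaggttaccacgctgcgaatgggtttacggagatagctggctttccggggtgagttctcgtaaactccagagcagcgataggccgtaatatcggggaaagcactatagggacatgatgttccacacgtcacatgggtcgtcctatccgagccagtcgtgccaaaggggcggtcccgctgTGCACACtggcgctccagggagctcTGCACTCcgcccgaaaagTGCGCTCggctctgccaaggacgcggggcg
Mt2: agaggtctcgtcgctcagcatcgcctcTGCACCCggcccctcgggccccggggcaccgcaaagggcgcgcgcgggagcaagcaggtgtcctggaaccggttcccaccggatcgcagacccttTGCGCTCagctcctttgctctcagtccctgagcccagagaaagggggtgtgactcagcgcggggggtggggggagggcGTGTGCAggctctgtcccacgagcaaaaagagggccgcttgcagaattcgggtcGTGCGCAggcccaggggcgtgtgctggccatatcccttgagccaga
Slc30a1: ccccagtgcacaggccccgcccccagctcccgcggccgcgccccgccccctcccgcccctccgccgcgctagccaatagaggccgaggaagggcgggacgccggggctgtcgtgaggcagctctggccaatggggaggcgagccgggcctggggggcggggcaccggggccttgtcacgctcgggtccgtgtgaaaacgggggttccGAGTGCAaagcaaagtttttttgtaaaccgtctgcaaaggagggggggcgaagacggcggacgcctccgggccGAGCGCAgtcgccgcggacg

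Of the 7 genes, 5 had a window in the table, and Slc39a14 and Slc39a4 had none. Positions count the start site of each window as 0. The matches of Mt1 began at -23, 2 and 20, those of Mt2 at -223, -128, -50 and 4, and those of Slc30a1 at -43 and 30. Slc30a10 had 3 matches, a pair of which overlapped on opposite strands at -233 and -232, and the third began at -73. The Mtf1 window had 0. Among 32851 promoter windows of the same length, 25.7% held at least 1 match, 7.11% at least 2, 1.97% at least 3 and 0.517% at least 4. An antioxidant response element core, TGACNNNGC on either strand, was found in Mt2 at -79 and in Slc30a1 at -82, and 12.4% of all windows held one. A STAT site, TTCCNGGAA, was in none of the 5 windows, against 1.15% of all windows. These matches describe letters and not binding. Mt1 (94178883 to 94180327 on chromosome 8) and Mt2 (94172618 to 94173567) are neighbors on the same strand, with their start sites 6471 bases apart. The start site of the Mt1 window lies 206 bases inside the annotated span of the gene. Its positions thus hold for this start site only, and another start site would give other positions and another window. Elements outside the windows were not searched, so a motif without a match in a window may lie beyond it.

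**Figure D1:**
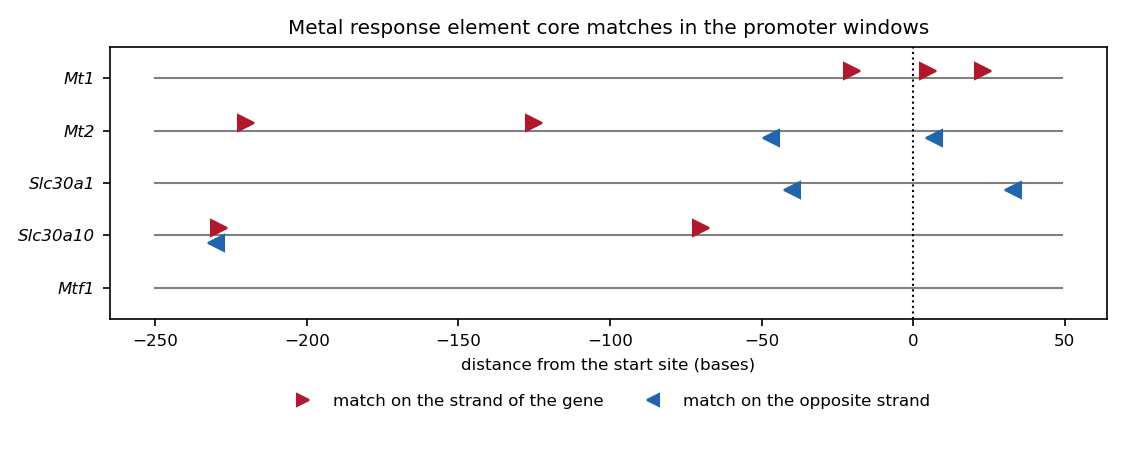
Matches to the metal response element core in the promoter windows of 5 genes, plotted by distance from the start site in bases. Triangles pointing right are matches on the strand of the gene and triangles pointing left matches on the opposite strand. Mt2 had 4 matches, Mt1 3, Slc30a10 3, Slc30a1 2 and Mtf1 0.

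All values are log2 signals of 1 probe set per gene, and signals of different genes are not compared with each other. Array medians lay between 4.42 and 4.50. In whole liver, fewer cells of a type and less RNA per cell cannot be told apart. The 8 hepatocyte markers measured had a mean signal of 13.05 to 13.12 in shLFAR1+CCl4, 12.86 to 13.04 in NC+CCl4, 13.04 to 13.10 in shLFAR1 and 13.00 to 13.08 in NC. A pair of arrays stood apart. In NC+CCl4 replicate 1 the 3' minus 5' signal of the Gapdh control was 0.716, against -0.205 to 0.033 in the other arrays. shLFAR1+CCl4 replicate 3 lay at 39.23 on the first principal component (56.3% of the variance), beside the NC+CCl4 arrays at 34.8 to 48.79 and away from its own group at -6.8 and -9.66. The labels name a whole-transcript labelling kit for these arrays, so the 3' minus 5' signal is given as a difference between arrays and not as a measure of RNA quality. Where leaving out both arrays changed the call of a member or a list count of calls given here, the value is given beside the result. This alternative was chosen after the values were seen.

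Mt1 was high in both CCl4 groups and lowest in shLFAR1 livers, and Mt2 was high in both CCl4 groups and low in both oil groups. The signal of Mt1 was 12.42, 11.34 and 12.78 in shLFAR1+CCl4, 9.90, 11.29 and 11.73 in NC+CCl4, 6.43, 6.93 and 6.20 in shLFAR1, and 9.35, 8.64 and 8.66 in NC. Every array with CCl4 was above every array with oil, every shLFAR1 array was below every NC array, and the CCl4 groups overlapped in their range. The signal of Mt2 was 11.53, 9.95 and 12.08 in shLFAR1+CCl4, 7.83, 9.44 and 9.96 in NC+CCl4, 6.13, 6.41 and 6.02 in shLFAR1, and 6.33, 6.28 and 6.70 in NC. For Mt2 only 1 of the 3 shLFAR1+CCl4 arrays, replicate 2 at 9.95, was below the highest NC+CCl4 array, and both oil groups overlapped. In both genes NC+CCl4 replicate 1, the array with the high 3' signal, was the lowest of its group, and shLFAR1+CCl4 replicate 3 was the highest.

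**Figure D2:**
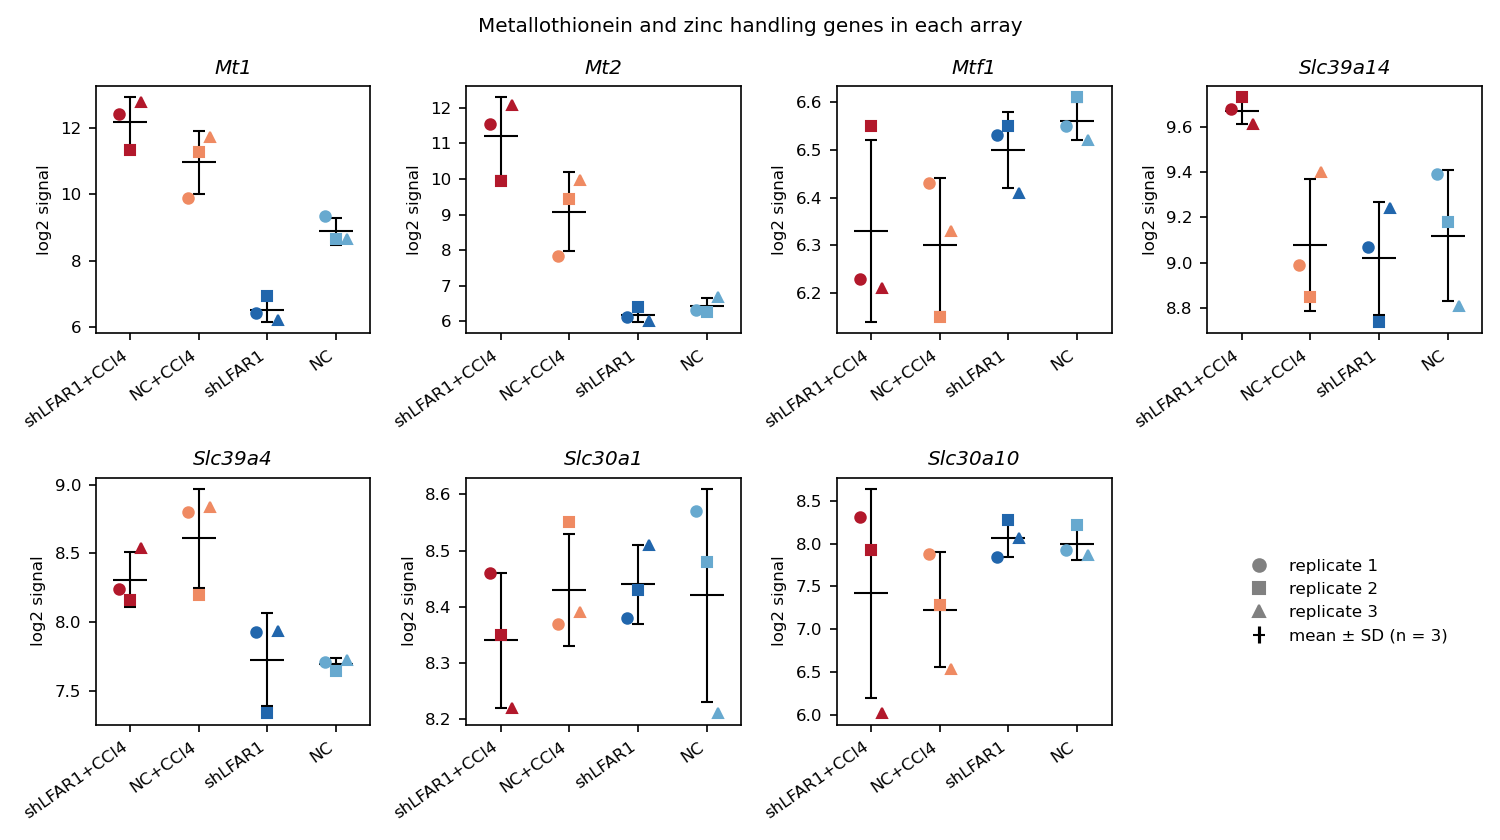
Signal (log2) of the 7 genes in each of the 12 arrays by group, with replicate numbers as shapes and the mean ± SD as bars (n = 3 per group). Mt1 spans 6.20 to 12.78 and Mt2 6.02 to 12.08, whereas Slc30a1 stays between 8.21 and 8.57.

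Group means were 12.18 ± 0.75 in shLFAR1+CCl4, 10.97 ± 0.95 in NC+CCl4, 6.52 ± 0.37 in shLFAR1 and 8.88 ± 0.40 in NC for Mt1 (SD, n = 3 each). For Mt2 they were 11.19 ± 1.10 in shLFAR1+CCl4, 9.08 ± 1.11 in NC+CCl4, 6.19 ± 0.20 in shLFAR1 and 6.44 ± 0.23 in NC (SD, n = 3 each). In this order of levels, the difference between both CCl4 groups, 1.20 for Mt1 and 2.11 for Mt2, exceeded the pooled SD of 0.86 and 1.11, but the arrays overlapped. The SD of both genes was larger with CCl4 than with oil. The SE given with each difference is drawn from all groups. For both genes it therefore understates the spread between the CCl4 groups and overstates that between the oil groups.

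With the knockdown virus, Mt1 was 50.5-fold higher in shLFAR1+CCl4 than in shLFAR1 (log2 difference 5.66 ± 0.44, SE) and Mt2 was 32.0-fold higher (5.00 ± 0.53), ranks 1 and 2 of the 18193 genes. With the control virus, Mt1 was 4.27-fold higher in NC+CCl4 than in NC (2.09 ± 0.44, rank 182) and Mt2 was 6.23-fold higher (2.64 ± 0.53, rank 91). Under CCl4, Mt1 was 2.30-fold (1.20 ± 0.44) and Mt2 4.32-fold (2.11 ± 0.53) higher in shLFAR1+CCl4 than in NC+CCl4, and Mt2 stood at rank 10. Under oil, Mt1 was 5.14-fold lower in shLFAR1 than in NC (-2.36 ± 0.44), the second lowest of all genes. Mt2 differed by -0.25 ± 0.53 there. Replicates of the same number in shLFAR1+CCl4 and NC+CCl4 differed by 2.52, 0.05 and 1.04 in Mt1 and by 3.69, 0.51 and 2.12 in Mt2, so it was smallest in replicate 2. Without both arrays that stood apart, the difference between shLFAR1+CCl4 and NC+CCl4 was 0.37 in Mt1 and 1.04 in Mt2. The CCl4 differences were then 5.36 and 4.55 in shLFAR1+CCl4 against shLFAR1, and 2.63 and 3.26 in NC+CCl4 against NC. The 4 comparisons share arrays in pairs, and the first of them is the one on which both genes were chosen.

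**Figure D3:**
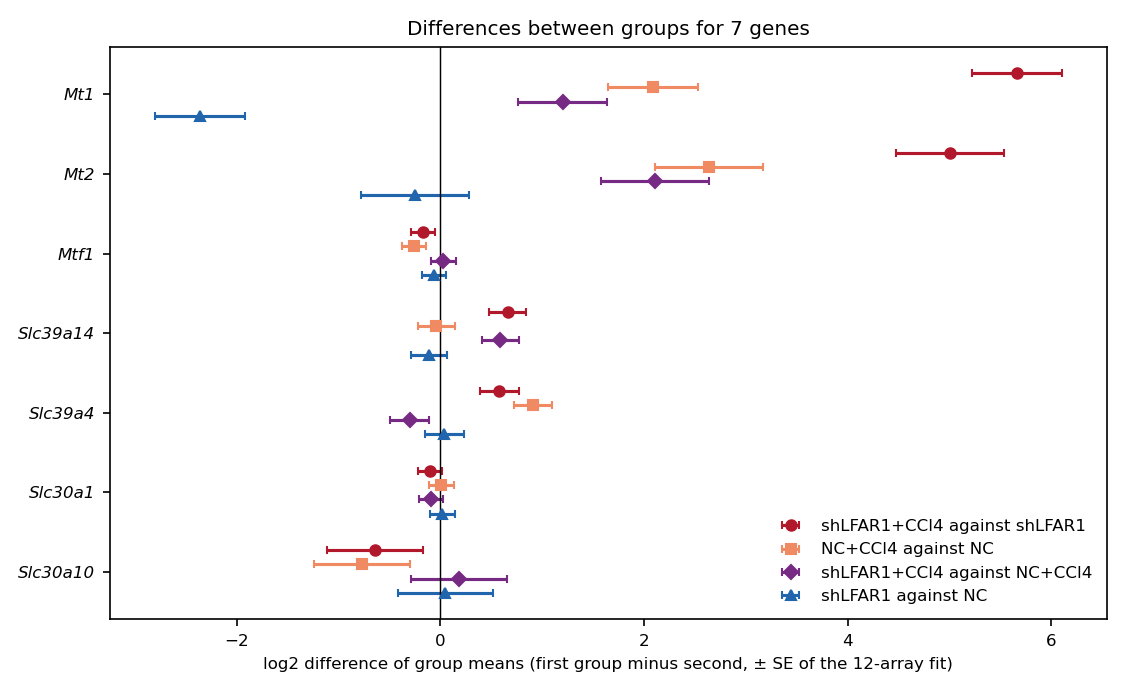
Log2 differences of group means for the 7 genes in 4 comparisons, first named group minus second, with the standard error of the 12-array fit as bars. Mt1 reaches 5.66 and Mt2 5.00 in shLFAR1+CCl4 against shLFAR1, and all differences of the other 5 genes lie between -0.77 and 0.91.

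Mt1 and Mt2 followed each other over the 12 arrays (Pearson's r = 0.923 across arrays that share 4 groups, given as a description). They parted in the oil groups, where Mt1 separated shLFAR1 from NC and Mt2 did not. The Mt2 signals there, 6.02 to 6.70, lie near the median of all gene means, 5.59, and the values come without detection calls. A low signal may thus be background, and fold changes from it may be understated.

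**Figure D4:**
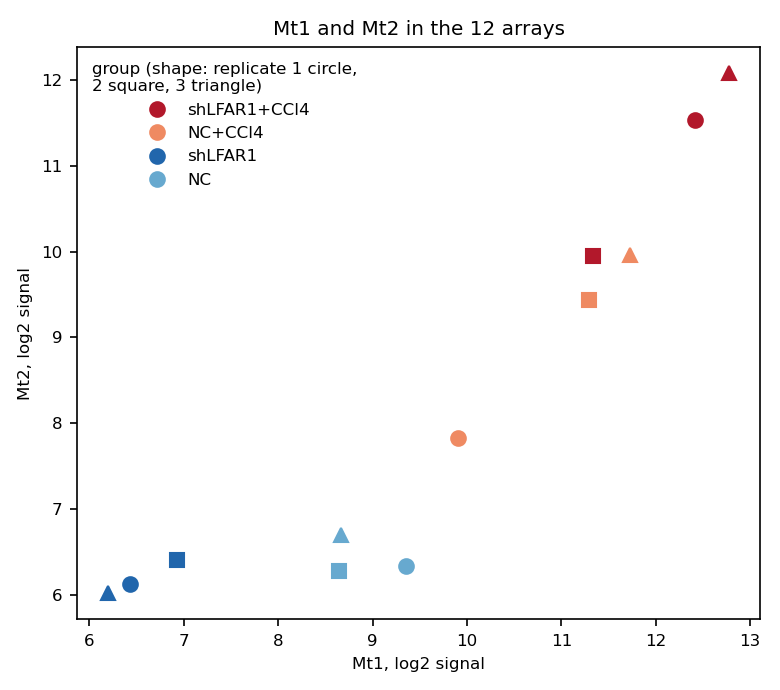
Mt2 signal against Mt1 signal (both log2) in the 12 arrays, with groups as colors and replicate numbers as shapes. The shLFAR1 and NC arrays differ along the Mt1 axis (6.20 to 6.93 against 8.64 to 9.35) and hardly along the Mt2 axis, and 1 of the shLFAR1+CCl4 arrays (replicate 2) lies beside NC+CCl4 arrays.

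A second and dimmer Mt1 probe set did not show the same pattern. It read 7.32, 4.59 and 8.05 in shLFAR1+CCl4, 4.61, 4.83 and 4.59 in NC+CCl4, 4.47, 4.03 and 4.15 in shLFAR1, and 4.37, 4.63 and 5.31 in NC. Only shLFAR1+CCl4 replicates 1 and 3 stood out, which were also the highest arrays in the probe set used. By this dimmer probe set the Mt1 difference was 2.44 in shLFAR1+CCl4 against shLFAR1, 1.98 in shLFAR1+CCl4 against NC+CCl4, -0.09 in NC+CCl4 against NC, and -0.56 in shLFAR1 against NC. Mt2 had 1 probe set. Mt3 and Mt4, the metallothioneins of brain and of squamous epithelia, were not called in any comparison by limma (0 of 2 also at an unadjusted p under 0.05 and 0 of 2 at P under 0.05 by the methods' t-test). The mean signal of Mt3 and Mt4 together was 3.63 to 3.98 in all 12 arrays.

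Mtf1, which encodes the zinc-sensing activator of the metallothionein genes, was at nearly the same level in all groups. Its signal was 6.23, 6.55 and 6.21 in shLFAR1+CCl4, 6.43, 6.15 and 6.33 in NC+CCl4, 6.53, 6.55 and 6.41 in shLFAR1, and 6.55, 6.61 and 6.52 in NC. The NC+CCl4 arrays were all below the NC arrays, but the difference of -0.26 ± 0.12 did not pass the test (limma with Benjamini-Hochberg adjustment over all genes, adjusted p = 0.206). Between shLFAR1+CCl4 and NC+CCl4 it was 0.03 ± 0.12 (limma, adjusted p = 0.953). In the other 4 Mtf1 probe sets the NC+CCl4 minus NC difference was -0.21 to -0.14, none of them called.

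Slc39a14 encodes ZIP14, an importer of zinc, iron and manganese that is induced by interleukin-6 in hepatocytes. Its signal was 9.68, 9.73 and 9.61 in shLFAR1+CCl4, 8.99, 8.85 and 9.40 in NC+CCl4, 9.07, 8.74 and 9.24 in shLFAR1, and 9.39, 9.18 and 8.81 in NC. All shLFAR1+CCl4 arrays were above all arrays of the other groups, which overlapped with each other. The difference between shLFAR1+CCl4 and NC+CCl4 was 0.59 ± 0.18 (1.51-fold, rank 251 from the highest), which did not pass the test (limma, adjusted p = 0.145). With replicates of the same number it was 0.70, 0.88 and 0.21. NC+CCl4 differed from NC by -0.04 ± 0.18 (limma, adjusted p = 0.903). Of its other 3 probe sets, a pair differed by 0.34 ± 0.16 each between shLFAR1+CCl4 and NC+CCl4, and the third by -0.09 ± 0.15. None of them was called.

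Slc39a4 encodes ZIP4, best known as the zinc importer of the intestine, and it was the only 1 of the 5 tested genes that was called. It rose 1.88-fold in NC+CCl4 over NC (0.91 ± 0.19, limma, adjusted p = 0.00929), where 13.1% of all genes were called, 7.66% as higher and 5.41% as lower. The signal was 8.24, 8.16 and 8.54 in shLFAR1+CCl4, 8.80, 8.20 and 8.84 in NC+CCl4, 7.93, 7.34 and 7.94 in shLFAR1, and 7.71, 7.65 and 7.73 in NC. Every CCl4 array was above every oil array. The difference between shLFAR1+CCl4 and NC+CCl4 was -0.30 ± 0.19 (limma, adjusted p = 0.544), and that between shLFAR1+CCl4 and shLFAR1 was 0.58 ± 0.19. The call held in all 21 alternative settings, each at its own threshold. Over these settings the adjusted p was 0.00241 to 0.141, and the highest was that of the methods' t-test, which uses an unadjusted P under 0.05 and a fold over 1.6.

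Slc30a1 encodes ZnT1, the zinc exporter of the plasma membrane. Its signal hardly varied, at 8.46, 8.35 and 8.22 in shLFAR1+CCl4, 8.37, 8.55 and 8.39 in NC+CCl4, 8.38, 8.43 and 8.51 in shLFAR1, and 8.57, 8.48 and 8.21 in NC. Its difference was 0.01 ± 0.12 in NC+CCl4 against NC (limma, adjusted p = 0.96) and -0.09 ± 0.12 in shLFAR1+CCl4 against NC+CCl4 (limma, adjusted p = 0.808). All 4 groups overlapped. The signal lay between 8.21 and 8.57 in all 12 arrays.

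Slc30a10 encodes a transporter that exports manganese from hepatocytes. Its signal was 8.31, 7.92 and 6.02 in shLFAR1+CCl4, 7.88, 7.28 and 6.54 in NC+CCl4, 7.84, 8.28 and 8.06 in shLFAR1, and 7.92, 8.22 and 7.87 in NC. The lowest value by far was that of shLFAR1+CCl4 replicate 3, the array that stood apart, and the second probe set was also lowest there (4.85). NC+CCl4 differed from NC by -0.77 ± 0.47 (limma, adjusted p = 0.33) and shLFAR1+CCl4 from NC+CCl4 by 0.18 ± 0.47 (limma, adjusted p = 0.92). Without both arrays that stood apart, Slc30a10 was called in both comparisons, at -1.09 ± 0.22 in NC+CCl4 against NC (limma, adjusted p = 0.00507) and at 1.20 ± 0.24 in shLFAR1+CCl4 against NC+CCl4 (limma, adjusted p = 0.0102). Under this alternative 16.7% and 8.47% of all genes were called in these comparisons.

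In all, limma called 1 of the 5 tested genes in NC+CCl4 against NC and 0 of 5 in shLFAR1+CCl4 against NC+CCl4, where 0.291% of all genes were called. Between the CCl4 groups 1 of 5 genes, Slc39a14, had an unadjusted p under 0.05 by limma, and 1 of 5 had P under 0.05 by the methods' t-test. List counts of the methods' t-test are given at that P without its fold threshold. The share of all genes at that P alone is not given, so these list counts cannot be set against a background. Of the 18193 genes, 4927 had an unadjusted p under 0.05 by limma in NC+CCl4 against NC. The number was 2579 in shLFAR1+CCl4 against NC+CCl4 and 1960 in shLFAR1+CCl4 against shLFAR1. Without both arrays that stood apart, limma called 2 of the 5 tested genes in NC+CCl4 against NC and 1 in shLFAR1+CCl4 against NC+CCl4. The arrays of both groups did not overlap for 4 of the 7 genes in NC+CCl4 against NC (29.6% of all genes), 1 in shLFAR1+CCl4 against NC+CCl4 (12.3%), 4 in shLFAR1+CCl4 against shLFAR1 (20.1%) and 1 in shLFAR1 against NC (10.8%). Nothing is read from the counts of the last pair, since the genes were chosen there. Slc39a14 and Slc39a4 were at 0.66 and 0.58 in shLFAR1+CCl4 against shLFAR1, and Mtf1, Slc30a1 and Slc30a10 at -0.17, -0.10 and -0.64. In shLFAR1 against NC these 5 genes lay between -0.11 and 0.05.

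Of 12 other ZIP genes, 1 rose and 1 fell in NC+CCl4 against NC, where 13.1% of all genes were called, with a median log2 change of 0.07 against -0.05 over all genes. The counts were 2 higher and 2 lower without both arrays that stood apart, with 16.7% of all genes called. Slc39a10, an importer whose gene is known to be repressed through MTF1, rose by 0.95 ± 0.21 (limma, adjusted p = 0.011). Its signal was 5.49, 6.32 and 6.20 in shLFAR1+CCl4, 6.75, 6.50 and 6.95 in NC+CCl4, 6.53, 6.65 and 6.42 in shLFAR1, and 5.90, 5.95 and 5.5 in NC. Slc39a2 fell by 1.15 ± 0.20 (limma, adjusted p = 0.00374), to 4.20, 3.79 and 4.25 in NC+CCl4, against 5.61, 5.16 and 4.93 in NC. Of 8 other ZnT genes only Slc30a2, a vesicular zinc transporter, was called, at -0.33 ± 0.10 (limma, adjusted p = 0.0425), and the call was lost in 15 of 20 alternative settings, among them the one without both arrays. Between shLFAR1+CCl4 and NC+CCl4, limma called 0 of the 12 ZIP and 0 of the 8 ZnT genes (2 and 0 at an unadjusted p under 0.05, 1 and 0 by the methods' t-test). It called 1 of each as higher there when both arrays that stood apart were left out, with 8.47% of all genes called.

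Of 7 further genes known as MTF1 targets, activated or repressed, 3 rose and 2 fell in NC+CCl4 against NC (13.1% of all genes called). The 3 were Slc39a10, Csrp1 (1.95 ± 0.25, limma, adjusted p = 0.000803), which encodes a LIM domain protein of smooth muscle, and Selenoh (1.09 ± 0.33, limma, adjusted p = 0.0484), a selenoprotein whose call was lost in 13 of 21 alternative settings. The 2 were Gclc (-0.92 ± 0.26, limma, adjusted p = 0.0322), the catalytic subunit of glutathione synthesis, and Slc40a1 (-0.54 ± 0.13, limma, adjusted p = 0.0186), the iron exporter ferroportin. The calls of Gclc and Slc40a1 were lost in 6 and 4 of 21 alternative settings. In NC+CCl4 against NC the median log2 change of the 7 MTF1 targets was 0.67, against -0.05 over all genes. It was 0.42 without both arrays that stood apart. Because the list mixes activated and repressed targets, MTF1 activity cannot be read from this median. An unadjusted p under 0.05 by limma was found for 7 of 7 in NC+CCl4 against NC. Among 12 copper handling genes 2 rose in NC+CCl4 against NC, Atp7a (0.50 ± 0.14, limma, adjusted p = 0.0341) and ceruloplasmin, Cp (0.36 ± 0.10, limma, adjusted p = 0.03), and the calls were lost in 11 and 7 of 21 alternative settings. In this comparison 2 copper genes were called as higher and 3 as lower without both arrays that stood apart, with 16.7% of all genes called. Of the MTF1 target and copper lists, limma called 0 of 7 and 0 of 12 genes in shLFAR1+CCl4 against NC+CCl4 (4 and 3 at an unadjusted p under 0.05, 1 and 1 by the methods' t-test). Without both arrays that stood apart, 2 MTF1 targets were called as lower there, and 1 copper gene as higher and 2 as lower. Of all genes, 8.47% were then called. In shLFAR1+CCl4 against shLFAR1, 2 MTF1 targets were then called as higher, against 0 with all arrays. The share of all genes called there without both arrays was 0.742%.

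Genes of the other known inducers of metallothionein were read beside them. Among the interleukin-6, glucocorticoid and Nrf2 lists, that of interleukin-6 and the acute phase had the most calls. Of its 17 genes, 10 were called as higher and 0 as lower in NC+CCl4 against NC. Of all genes, 7.66% were called as higher there. In shLFAR1+CCl4 against shLFAR1, 7 of 17 were called as higher, where 0.407% of all genes were called and 0.324% as higher. The median log2 change was 0.41 in NC+CCl4 against NC and 0.55 in shLFAR1+CCl4 against shLFAR1, against -0.05 and -0.03 over all genes. The largest were Lcn2, which encodes the iron-siderophore binding lipocalin 2, and the serum amyloid A genes Saa1, Saa2 and Saa3. Lcn2 rose by 4.59 ± 0.72 in shLFAR1+CCl4 against shLFAR1 (limma, adjusted p = 0.0145) and by 6.76 ± 0.72 in NC+CCl4 against NC (limma, adjusted p = 0.000292). Saa2 rose by 4.74 ± 0.69 (limma, adjusted p = 0.00903) and 4.45 ± 0.69 (limma, adjusted p = 0.00222) in the same comparisons, and as a near-identical copy of Saa1 it may share probes with it. Stat3, the transcription factor downstream of the interleukin-6 receptor, rose by 0.84 ± 0.14 in shLFAR1+CCl4 against shLFAR1 (limma, adjusted p = 0.0218) and by 0.51 ± 0.14 in NC+CCl4 against NC (limma, adjusted p = 0.0327). Stat3 was named after its values were seen, and its calls were lost in 5 and 10 of 21 alternative settings. The call of Lcn2 in shLFAR1+CCl4 against shLFAR1 was lost in 4 of 21.

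The mean signal of the 17 acute phase genes was 11.48, 11.35 and 11.52 in shLFAR1+CCl4, 10.88, 11.57 and 11.53 in NC+CCl4, 10.13, 10.01 and 9.94 in shLFAR1, and 9.99, 9.84 and 9.94 in NC. As with Mt1 and Mt2, NC+CCl4 replicate 1 was the lowest CCl4 array. Unlike Mt1, shLFAR1 was not below NC. Between shLFAR1+CCl4 and NC+CCl4, limma called 0 of 17 (4 at an unadjusted p under 0.05, 1 by the methods' t-test), and without both arrays that stood apart 4 were called as higher and 2 as lower. The counts for CCl4 were then 12 of 17 in shLFAR1+CCl4 against shLFAR1 and 9 of 17 in NC+CCl4 against NC. Of all genes, 0.742% and 16.7% were then called in these comparisons, and 8.47% between the CCl4 groups.

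Of 12 glucocorticoid-responsive genes, 1 rose and 2 fell in NC+CCl4 against NC (13.1% of all genes called), namely Pdk4 (2.55 ± 0.39, limma, adjusted p = 0.00206), an inhibitor of pyruvate oxidation, Pck1 (-1.55 ± 0.30, limma, adjusted p = 0.00577), the gluconeogenic enzyme, and Errfi1 (-0.93 ± 0.18, limma, adjusted p = 0.00525), an inhibitor of the EGF receptor. Limma called 0 of 12 in shLFAR1+CCl4 against NC+CCl4 and 0 of 12 in shLFAR1+CCl4 against shLFAR1. The counts were 6 and 5 at an unadjusted p under 0.05 by limma, and 4 and 2 by the methods' t-test. Of all 18193 genes, 2579 and 1960 had an unadjusted p under 0.05 by limma in these comparisons. The median log2 change was 0.30 in shLFAR1+CCl4 against NC+CCl4, 0.19 in shLFAR1+CCl4 against shLFAR1, -0.28 in NC+CCl4 against NC and -0.26 in shLFAR1 against NC, where 10 of 12 genes lay below 0. For the difference between both CCl4 responses it was 0.53, against 0.01 over all genes, with 9 of 12 genes above 0, 5 at an unadjusted p under 0.05 by limma and 0 called. Without both arrays that stood apart the median in shLFAR1+CCl4 against NC+CCl4 was -0.09, with 1 gene called as higher and 1 as lower. In NC+CCl4 against NC, 1 was then called as higher and 3 as lower, and in shLFAR1+CCl4 against shLFAR1 1 as lower. Of all genes, 8.47%, 16.7% and 0.742% were then called in these comparisons, in that order. The mean signal of the list was 8.59, 8.57 and 9.24 in shLFAR1+CCl4, 8.72, 8.70 and 8.78 in NC+CCl4, 8.29, 8.53 and 8.79 in shLFAR1, and 8.92, 8.73 and 9.06 in NC. Mt1 and this list shared their lowest group, shLFAR1, but the list overlapped between shLFAR1 and NC. The rest of the order differed. Mt1 was highest in shLFAR1+CCl4, and the list was highest on average in NC. In NC+CCl4 against NC, Mt1 rose by 2.09 while the median of the list was -0.28. A part of glucocorticoids in the Mt1 signal was not tested.

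Of 12 Nrf2 and oxidative stress genes, 1 rose and 2 fell in NC+CCl4 against NC (13.1% of all genes called). Nfe2l2, which encodes Nrf2 itself, rose by 1.13 ± 0.18 (limma, adjusted p = 0.00222), and Gclc and Gclm, the subunits of glutathione synthesis, fell by 0.92 and 0.46, calls that were lost in 6 and 8 of 21 alternative settings. Nfe2l2 was also the only gene of any of these lists called in shLFAR1+CCl4 against NC+CCl4, at -1.13 ± 0.18 (limma, adjusted p = 0.0206). Its signal was 8.52, 8.43 and 9.23 in shLFAR1+CCl4, 9.85, 9.71 and 10.02 in NC+CCl4, 8.90, 8.97 and 9.13 in shLFAR1, and 8.67, 8.82 and 8.70 in NC. All NC+CCl4 arrays were above all others, which is not the order of Mt1 or Mt2. The call between the CCl4 groups was lost in 6 of 21 alternative settings.

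In shLFAR1 against NC, limma called no gene at all (0.0% of 18193, with 504 genes at an unadjusted p under 0.05 and 31 past the thresholds of the methods' t-test), so none of the lists had a call there. For the difference between both CCl4 responses, limma called 4 genes (0.022%), none of them in these lists. That difference was 3.56 for Mt1, 2.36 for Mt2 and 0.70 for Slc39a14, and between -0.33 and 0.13 for the other 4 genes.

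Genes whose arrays followed the metallothioneins most closely were ranked by Pearson's r with the mean of Mt1 and Mt2 over the 12 arrays, among the 9096 genes brighter than the median. Because the arrays share 4 groups, r is given as a description. The highest were Itih3 (0.963), Kng1 (0.941), Slc3a1 (0.932), Rpap3 (0.93), Plscr2 (0.927), Fgl1 (0.922), Hp (0.92), Cyp3a13 (0.919), Itih4 (0.917) and Wfdc2 (0.917). Itih3 and Itih4 encode heavy chains of the plasma inter-alpha-trypsin inhibitors, Kng1 kininogen, Fgl1 a secreted fibrinogen-like protein, and Hp haptoglobin. Slc3a1 encodes a subunit of the cystine transporter. Itih3 was at 13.07, 12.88 and 12.99 in shLFAR1+CCl4, 12.63, 12.98 and 12.92 in NC+CCl4, 12.25, 12.32 and 12.11 in shLFAR1, and 12.33, 12.23 and 12.28 in NC. Like Mt1 and Mt2 it was lowest of the CCl4 arrays in NC+CCl4 replicate 1, but its shLFAR1 and NC arrays overlapped. The lowest r belonged to Cspg5 (-0.935), Pfn2 (-0.922), C1qbp (-0.919), Mrps7 (-0.914) and Nln (-0.901). C1qbp and Mrps7 encode mitochondrial proteins, and Pfn2 encodes an actin-binding profilin. Among the zinc handling genes r was 0.678 for Slc39a4, 0.627 for Slc39a14, -0.266 for Slc30a1, -0.59 for Slc30a10 and -0.714 for Mtf1.

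**Figure D5:**
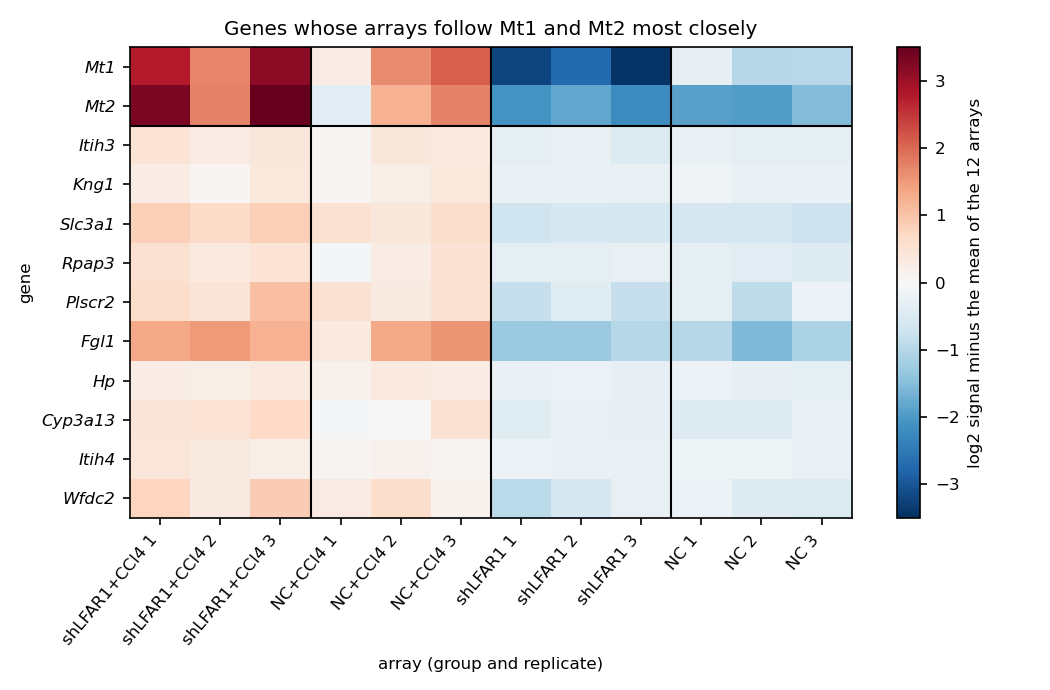
Log2 signal minus the mean of the 12 arrays (color) for Mt1, Mt2 and the 10 genes whose arrays followed them most closely, with 1 column per array. Mt1 is darkest blue in the 3 shLFAR1 arrays (6.20 to 6.93), whereas Itih3 reads 12.11 to 12.32 in shLFAR1 and 12.23 to 12.33 in NC.

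Markers of other liver cells differed between the groups too, and their part in the metallothionein signal was not tested. In NC+CCl4 against NC, 6 of 8 stellate cell, 5 of 8 macrophage, 3 of 6 neutrophil and 2 of 7 lymphocyte markers were called as higher. Of all genes, 7.66% were called as higher there and 13.1% in either direction. The count of calls was 0 of 8 for hepatocyte, 0 of 7 for endothelial and 0 of 5 for cholangiocyte markers. At an unadjusted p under 0.05 by limma it was 2, 1 and 2, and by the methods' t-test 2, 2 and 0. The mean signal of the stellate markers was 7.11, 7.18 and 8.38 in shLFAR1+CCl4, 8.52 to 8.57 in NC+CCl4, 6.44 to 7.06 in shLFAR1 and 6.53 to 6.80 in NC. That of the macrophage markers was 7.52, 7.51 and 8.60 in shLFAR1+CCl4, 8.20 to 8.90 in NC+CCl4, 6.74 to 6.97 in shLFAR1 and 6.72 to 7.07 in NC. Both lists were lower in shLFAR1+CCl4 replicates 1 and 2 than in any NC+CCl4 array. Neutrophil markers were at 5.30 to 5.67 in shLFAR1+CCl4, 5.39 to 5.71 in NC+CCl4, 4.38 to 4.71 in shLFAR1 and 4.31 to 4.56 in NC. Between shLFAR1+CCl4 and NC+CCl4 none of the 7 lists had a call. Without both arrays that stood apart, 7 of 8 stellate and 5 of 8 macrophage markers were called as lower there. Of the 8 hepatocyte markers, 1 was then called as higher and 1 as lower, with 8.47% of all genes called. In NC+CCl4 against NC, 7 of 8 stellate, 2 of 8 hepatocyte and 1 of 5 cholangiocyte markers were then called as higher. Of the 7 lymphocyte markers, 2 were then called as higher and 1 as lower there. The share of all genes called was 16.7%. In shLFAR1 against NC, none of these lists had a call, and the ranges of all 7 lists overlapped.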

How the data were processed

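Liver RNA of 12 mice was measured on Affymetrix Mouse Genome arrays. The deposited table holds log2 values, a scale read from their range (1.81 to 14.5). How the authors summarized and normalized the probes is not given in the sources used here. The number of arrays limits the precision. Of 45101 probe sets, 34945 had 1 gene symbol in the platform annotation, 932 several and 9160 none, beside 64 controls. Each of 18193 genes was represented by its probe set with the highest mean.

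Groups came from the sample labels, which call the replicates biological. A model of the 4 groups was fitted to all 12 arrays with limma 3.58.1 in R 4.3.3 (lmFit, eBayes with an intensity trend, 8 residual degrees of freedom), two-sided, with Benjamini-Hochberg adjustment across the 18193 genes. Calls were made below an adjusted p of 0.05. The methods' t-test used a fold change over 1.6 and P under 0.05. Arrays with the same replicate number correlated in their deviations from the group means at 0.126, 0.229 and 0.192 in NC+CCl4 and shLFAR1+CCl4. The other pairs of groups did not all correlate, and NC replicate 2 with NC+CCl4 replicate 2 was at -0.133. Arrays of different number reached 0.188, in NC replicate 3 with NC+CCl4 replicate 2. The labels do not state a pairing, and these values do not establish one. Differences by replicate number are thus a description, and the main fit used no pairing. Promoter windows came from RefSeq on GRCm38.p6, the annotation of which gave the gene positions. Plots were drawn with Python 3.11.15.

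The genes and lists were chosen with earlier results of these data known. Named genes were the 7 members, mostly up to 4 called genes per list and comparison by size of change, and the 10 highest and 5 lowest correlations. Of the cell type and Nrf2 lists, 8 genes had no probe set with their symbol alone. Alternatives were the variance trend, a filter on dim genes, the mean over probe sets, quantile normalization, a replicate block, array weights, only the groups compared, the t-test, and leaving out each array.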

Additional observations from a re-analysis of the deposited data

Results flagged for a closer look

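The mean effect of the knockdown virus on Mt1 had opposite signs with CCl4 and with oil. Mt1 was higher in shLFAR1+CCl4 than in NC+CCl4 by 1.20 and lower in shLFAR1 than in NC (-2.36), a difference between both effects of 3.56 on the log2 scale. Without both arrays that stood apart the effect with CCl4 was 0.37. For Mt2 the mean effects were 2.11 with CCl4 and -0.25 with oil, a difference of 2.36. The oil arrays of Mt2 overlapped, so no direction is given for Mt2 in oil. The difference of 0.25 between the means of NC and shLFAR1 was just over their pooled SD of 0.22. The fitted SE is drawn from all groups, and so does not measure the spread of the oil arrays alone. In both genes all 3 shLFAR1+CCl4 replicates were above the NC+CCl4 replicate of the same number, in Mt1 by only 0.05 for replicate 2. The labels do not state a pairing, and without it the arrays of both CCl4 groups overlapped in both genes. The difference between the effects with CCl4 and with oil was not tested, since both genes were chosen for this pattern.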

How the results depend on the processing

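Signs and calls were compared under 21 alternatives for the genes named. Slc39a4 kept its call in NC+CCl4 against NC in all of them at the thresholds of each test. Genes called in NC+CCl4 against NC numbered 2378, and 1262 by the methods' t-test. For shLFAR1+CCl4 against NC+CCl4 the count of 53 was 919 with array weights, 0 with only the groups compared, 176 by the t-test and 1541 without both arrays that stood apart. For shLFAR1+CCl4 against shLFAR1 the count of 74 was 375 with array weights, 240 by the t-test and 135 without both arrays. For shLFAR1 against NC the count of 0 was 3 with only the groups compared and 31 by the t-test. For the difference between both CCl4 responses the count of 4 was 2 with the mean over probe sets, 7 after quantile normalization, 393 with array weights and 776 without both arrays. Of Mtf1 and the 4 transporters, 2 were called without both arrays in NC+CCl4 against NC, in place of 1, and 1 in shLFAR1+CCl4 against NC+CCl4, in place of 0. The cause of these shifts in the counts was not tested. For shLFAR1+CCl4 against NC+CCl4, leaving out just replicate 1 of NC+CCl4 lowered the count of 53 to 34. Leaving out just replicate 3 of shLFAR1+CCl4 raised it to 1327.

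Leaving out each array in turn gave 1263 to 2923 calls in NC+CCl4 against NC (lowest without NC replicate 1, and 1321 without NC replicate 2), 4 to 1327 in shLFAR1+CCl4 against NC+CCl4 (lowest without shLFAR1+CCl4 replicate 1, highest without its replicate 3, and 546 without NC+CCl4 replicate 2), 23 to 110 in shLFAR1+CCl4 against shLFAR1 (lowest without shLFAR1 replicate 3), 0 to 0 in shLFAR1 against NC, and 0 to 583 for the difference between responses (highest without shLFAR1+CCl4 replicate 3). The members called stayed at 1 to 1 in NC+CCl4 against NC and 0 to 0 in shLFAR1+CCl4 against NC+CCl4. The log2 difference of Mt1 was 5.36 to 6.08 in shLFAR1+CCl4 against shLFAR1, 0.67 to 1.62 in shLFAR1+CCl4 against NC+CCl4, 1.71 to 2.63 in NC+CCl4 against NC and -2.57 to -2.13 in shLFAR1 against NC, and that of Mt2 was 4.55 to 5.61, 1.49 to 2.73, 2.20 to 3.26 and -0.36 to -0.12 in the same comparisons.

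With the mean over its probe sets, Mt1 was at 4.05 in shLFAR1+CCl4 against shLFAR1, 1.59 in shLFAR1+CCl4 against NC+CCl4, 1.00 in NC+CCl4 against NC and -1.46 in shLFAR1 against NC. Its dimmer probe set alone gave 2.44, 1.98, -0.09 and -0.56. Small differences of uncalled genes changed sign, and without each array in turn that of Slc39a14 in NC+CCl4 against NC was -0.20 to 0.09 and that of Slc30a10 in shLFAR1+CCl4 against NC+CCl4 -0.26 to 0.88. Mtf1 in shLFAR1+CCl4 against NC+CCl4 was at -0.08 when shLFAR1+CCl4 replicate 2 was left out and at -0.05 when NC+CCl4 replicate 2 was. Slc39a14 in NC+CCl4 against NC was at 0.09 without NC replicate 1, 0.00 without NC+CCl4 replicate 1, 0.07 without NC+CCl4 replicate 2 and 0.00 without both arrays that stood apart. Slc30a1 in NC+CCl4 against NC was at -0.02 with the mean over probe sets, 0.00 after quantile normalization, -0.05 with array weights, -0.09 without NC replicate 3 and -0.05 without NC+CCl4 replicate 2. Slc30a10 in shLFAR1+CCl4 against NC+CCl4 was at -0.16 without NC+CCl4 replicate 3, -0.26 without shLFAR1+CCl4 replicate 1 and -0.07 without shLFAR1+CCl4 replicate 2.

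With the replicate number as a block, the counts were 2440 in NC+CCl4 against NC, 55 in shLFAR1+CCl4 against NC+CCl4, 97 in shLFAR1+CCl4 against shLFAR1, 0 in shLFAR1 against NC and 4 for the difference between responses. The block changed no call of the 5 tested genes. Of the genes named from the lists it ended the call of Slc30a2. Signals near background limit the folds of Mt2 in oil, and 3 arrays a group limit the precision of all differences.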
